A study of Mus musculus with 108 samples.

Results

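The genes described here are 10 complement genes of the mouse liver, taken by their symbol in the platform annotation: C2, C4b, Cfb, Masp1 and Masp2 of the early pathway, and C6, C8a, C8b, C8g and C9 of the terminal complex. They are 10 of 15129 genes that had 1 symbol and a value on some array, and all 10 were measured. Each gene stands for 1 probe, the brightest of its probes that stayed below the scanner limit on the most arrays. C2 has 2 probes, Masp1 has 4, Masp2 has 3, and the other genes have 1. Liver RNA of female ovariectomized C57BL/6 mice was hybridised to 108 single-colour Agilent arrays. Treated mice received clofibrate or Wy14643 by gavage, 300 mg/kg in both cases, and vehicle mice received sesame oil. Both compounds activate PPAR alpha, a nuclear receptor that raises fatty acid breakdown in liver. Each compound has an arm of 54 arrays with its own vehicle groups, sampled at 2, 4, 8, 12, 18 and 24 h, and in a daily dosing course at 1, 4 and 14 days. A group is 1 treatment at 1 time and holds 3 arrays. Every mouse lacked its ovaries, so no group shows these genes under normal ovarian hormones.

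Complement is a set of plasma proteins, made mainly by hepatocytes, that tags microbes and opens their membranes. In the lectin pathway the proteases MASP-1 and MASP-2 are switched on when a carbohydrate-binding protein meets a microbe, and MASP-2 cuts C4 and C2 to build a convertase. Factor B, the product of Cfb, is the matching subunit in the alternative pathway. The terminal proteins then join on the membrane: C6 binds early, C8 (its alpha, beta and gamma chains come from C8a, C8b and C8g) inserts into the membrane, and C9 polymerises into a pore. Several of these genes belong to the acute phase response of liver, in which inflammatory cytokines change the output of plasma proteins.

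Values are log2 fluorescence after each array was scaled to its 75th percentile over 12210 probes measured on all arrays. Each difference is the treated mean minus the vehicle mean of that time and arm, with the SE that limma gives, and a gene was called where its Benjamini-Hochberg adjusted p over all genes tested was under 0.05. The arrays of the clofibrate arm carried 15750 to 21658 values and those of the Wy14643 arm 19738 to 22227. The scanner limit, read as the value at which the top of an array was tied, lay between 15.63 and 16.5 as deposited, and probes there are called saturated. The albumin gene Alb and other hepatocyte markers were at or near that limit, and all 5 hepatocyte markers on the array had a value on all 108 arrays. In the clofibrate arm, vehicle replicate 1 at 14 days was nearly identical to vehicle replicate 1 at 4 days (r = 0.99997, against 0.9955 for the next closest pair). The 14 day group or the 4 day group may thus hold 2 arrays of its own, and which of them is not known. Only the 14 day array was left out as an alternative, so the 4 day clofibrate differences carry the same doubt unchecked. The series calls the 3 arrays of a group biological replicates. Whole liver was used, so fewer cells of a type and less RNA per cell cannot be told apart.

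Wy14643 lowered most of these genes. For the mean over the 9 times 8 of the 9 testable genes were lower and none higher, beside 35.6% of all 10308 genes tested that were lower. The median of the 9 genes was -0.76, while the median of all genes tested was -0.07. C8b (-1.09 ± 0.09), C9 (-1.08 ± 0.09) and C8a (-1.05 ± 0.10) fell most, followed by C2 (-0.85 ± 0.06) and Masp1 (-0.76 ± 0.05). C4b (-0.57 ± 0.04), C8g (-0.40 ± 0.04) and Masp2 (-0.34 ± 0.09) fell less. C6 stood at -0.16 ± 0.08 and was not called (limma, adjusted p = 0.0796), although it was called when replicate numbers were used as pairs (adjusted p = 0.00906). C6 was also called without vehicle replicate 1 (-0.19, adjusted p = 0.0444) and without treated replicate 2 (-0.21, 0.0439). Cfb could not be tested, because its probe lay at the scanner limit on all 108 arrays.

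**Figure D1:**
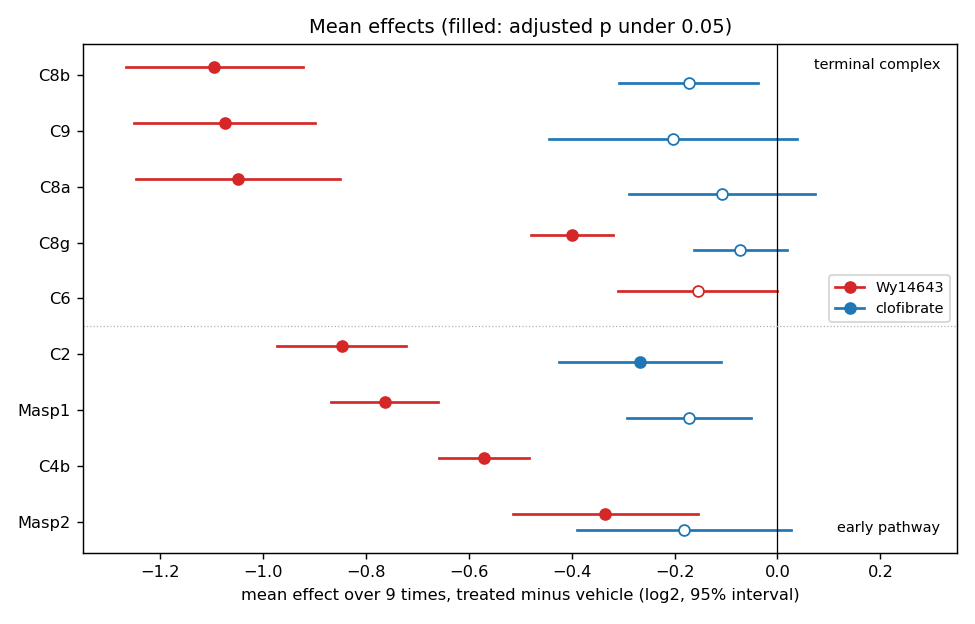
Mean effect over the 9 times for each member (x axis, treated minus vehicle, log2) with 95% intervals, Wy14643 in red and clofibrate in blue, filled points where the adjusted p was under 0.05. The Wy14643 points of C8b, C9 and C8a lie near -1, and those of clofibrate lie between -0.27 and -0.07. C6 and C4b have no clofibrate mean, and Cfb has none at all.

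C9, the protein that forms the pore, showed the largest single difference of the members. At 14 days of Wy14643 its values were 7.24, 7.58 and 7.60 in treated livers and 10.43, 10.45 and 10.56 in vehicle livers. The 3 treated livers thus lay far below the 3 vehicle livers with no overlap. The difference was -3.01 ± 0.26, which is 8.03-fold lower (limma, adjusted p = 4.12e-12). At 24 h after 1 dose C9 lay at 9.05, 9.28 and 9.30 in treated and at 10.08, 10.19 and 10.93 in vehicle livers, again apart. That difference was -1.19 ± 0.26. Between 24 h and 14 days the effect of Wy14643 on C9 changed by a further -1.82 ± 0.37 (adjusted p = 0.00209), and C9 was the one member of 9 called in this test, beside 0.677% of all genes tested that were lower. At 1 day the values were 9.02, 9.09 and 9.14 against 10.37, 10.65 and 10.99, and at 4 days 8.00, 8.18 and 8.21 against 9.16, 9.47 and 9.79. Both vehicle and treated livers were thus lower at 4 days than at 1 day. The differences at these times were -1.59 ± 0.26 and -1.34 ± 0.26.

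C8b and C8a, which encode the beta and alpha chains of C8 and lie next to each other in the genome (assembly GRCm38.p6), followed the same course as each other. At 14 days C8b lay at 10.30, 10.76 and 11.19 in treated and at 12.71, 13.05 and 13.48 in vehicle livers. C8a lay at 11.47, 12.58 and 12.61 in treated and at 14.36, 14.53 and 14.66 in vehicle livers. Neither gene's groups overlapped, and the lowest C8a value came from treated replicate 1. C8b was 5.03-fold lower (-2.33 ± 0.26, limma, adjusted p = 2.39e-09) and C8a 4.90-fold lower (-2.29 ± 0.30, adjusted p = 1.16e-07). At 24 h C8b differed by -1.53 ± 0.26 and C8a by -1.55 ± 0.30. Over the 18 effects (9 times of both compounds) the 2 genes correlated at r = 0.97, and C8a ranked 1st among 8068 genes in likeness to C8b. These 18 points share arrays, vehicle groups and scaling, so the correlation is a description only.

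The sequences before the genes that fell most are shown beside that of C6, which fell least of those tested. For each, the 250 bases before the RefSeq start (GRCm38.p6) are given 5′ to 3′ on the gene's strand. Capitals mark matches to any of 6 motifs searched on both strands. The motifs were AGGTCA (the half-site of nuclear receptors such as PPAR alpha), its repeat with 1 base between (AGGTCANAGGTCA), TTGCNNAA (C/EBP), TTCNNNGAA (STAT), GTTAAT (the HNF1 half-site) and TGTTTGC (FOX factors).
C9 (chr15:6445096-6445345, + strand): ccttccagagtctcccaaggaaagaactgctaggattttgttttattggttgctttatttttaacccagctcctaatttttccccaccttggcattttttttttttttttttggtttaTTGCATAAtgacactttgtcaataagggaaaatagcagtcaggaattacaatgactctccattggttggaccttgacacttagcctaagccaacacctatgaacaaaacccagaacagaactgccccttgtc
C8b (chr4:104766067-104766316, + strand): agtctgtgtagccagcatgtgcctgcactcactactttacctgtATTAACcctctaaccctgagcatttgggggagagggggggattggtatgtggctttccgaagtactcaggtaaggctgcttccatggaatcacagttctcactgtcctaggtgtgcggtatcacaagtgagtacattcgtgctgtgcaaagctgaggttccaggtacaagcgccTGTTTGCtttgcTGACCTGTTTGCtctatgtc
C8a (chr4:104876399-104876648, - strand): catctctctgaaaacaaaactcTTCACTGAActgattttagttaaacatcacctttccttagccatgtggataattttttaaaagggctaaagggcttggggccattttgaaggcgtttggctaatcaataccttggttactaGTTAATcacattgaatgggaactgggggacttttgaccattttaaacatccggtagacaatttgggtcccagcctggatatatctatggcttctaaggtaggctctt
C6 (chr15:4726960-4727209, + strand): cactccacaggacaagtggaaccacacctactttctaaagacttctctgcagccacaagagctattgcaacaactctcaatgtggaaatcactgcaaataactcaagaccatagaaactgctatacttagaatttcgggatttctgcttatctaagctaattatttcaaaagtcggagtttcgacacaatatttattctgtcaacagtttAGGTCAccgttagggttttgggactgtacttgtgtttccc

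In these windows C9 holds 1 match, to TTGCNNAA, which starts 132 bases before the start of the gene. C8b holds 4 matches: GTTAAT on the opposite strand, TGTTTGC at 32 and 15 bases before the start, and AGGTCA on the opposite strand, which shares a base with the nearer TGTTTGC. C8a holds TTCNNNGAA at 228 bases and GTTAAT at 107 bases. C6 holds AGGTCA at 40 bases. No motif was common to C9, C8a and C8b, and C8a and C8b share the HNF1 half-site alone. Of 32851 RefSeq windows of this length 14% hold AGGTCA, 9.56% TTGCNNAA, 7.02% TTCNNNGAA, 6.43% GTTAAT, 4.30% TGTTTGC and 0.0335% the repeat, which no member window holds. RefSeq windows matched 6 of the 10 members, and a match is a run of letters, not a shown binding site.

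C8g, which encodes the gamma chain of C8, a lipocalin, fell less than its partners. At 14 days C8g lay at 14.56, 14.67 and 14.99 in treated and at 15.71, 15.82 and 15.91 in vehicle livers, 1 of which was at the scanner limit. The groups did not overlap, and the difference was -1.07 ± 0.12 (limma, adjusted p = 3.94e-09). C8g was at the limit on 13 of 27 vehicle arrays and 5 of 27 treated arrays of the Wy14643 arm, and at 2 h, where all 3 vehicle arrays were saturated, its vehicle level is only a lower bound. At 1 day C8g differed by -0.45 ± 0.12 after scaling, but by 0.17 in the values as deposited. Its 24 h difference was -0.63 ± 0.12 after scaling and -0.25 as deposited (adjusted p = 0.11). At 1 day Cfb, saturated on all 6 arrays, carried a scaled difference of -0.62, and at 24 h one of -0.39, which is the shift that scaling alone gives a probe at the limit. C6, whose product binds C5b to begin the terminal complex, was not called at any time of Wy14643 without pairing. With the replicate numbers as pairs C6 was called at 4 days (-0.42, limma, adjusted p = 0.0452). At 14 days it lay at 8.65, 8.77 and 8.97 in treated and at 8.88, 9.17 and 9.18 in vehicle livers, with overlap, and over all times its Wy14643 differences ran from -0.42 to 0.21.

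Among early genes C2, the protease subunit of the lectin and classical convertase, had its largest difference after scaling in the 1 day group. It stood at -1.29 ± 0.19 at 18 h, at -1.04 ± 0.19 at 24 h and at -0.96 ± 0.19 at 4 days. Scaling shifted these times unequally: saturated Cfb stood at 0.07 at 18 h, -0.39 at 24 h and -0.62 at 1 day. Which time has the largest C2 difference thus depends on the scaling. At 1 day C2 lay at 11.59, 11.67 and 11.74 in treated and at 13.04, 13.11 and 13.79 in vehicle livers. The groups were far apart, and vehicle replicate 3 was the highest. The difference was -1.65 ± 0.19 (3.13-fold, limma, adjusted p = 9.82e-09). At 14 days the C2 difference was -0.81 ± 0.19, with treated livers at 11.73, 11.97 and 12.24 and vehicle livers at 12.60, 12.83 and 12.93. The change of the C2 effect between 24 h and 14 days was 0.23 ± 0.26, which was not called. A second C2 probe, brighter but at the scanner limit on 2 arrays, gave a mean effect of -0.68 in place of -0.85.

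Masp1, which encodes the protease that activates MASP-2, had differences of like size at 12 h, 18 h and 14 days and smaller ones from 24 h to 4 days. At 12 h Masp1 lay at 12.65, 12.74 and 12.87 in treated and at 13.71, 13.86 and 13.92 in vehicle livers. The groups were well apart, with a difference of -1.08 ± 0.15 (2.11-fold, limma, adjusted p = 9.2e-07), and at 18 h it was -1.11 ± 0.15, at 24 h -0.83 ± 0.15, at 4 days -0.69 ± 0.15 and at 14 days -1.12 ± 0.15. The Masp1 probes differed: the mean effect was -0.76 for the probe used and -0.58 and -0.20 for 2 others, which stood at -1.15 and -0.22 at 14 days. The last Masp1 probe was listed on 27 arrays only and gave no effect. Masp2, which encodes the protease that cuts C4 and C2, was called at a single time. At 14 days Masp2 lay at 13.81, 13.92 and 14.18 in treated and at 14.47, 14.75 and 14.95 in vehicle livers, without overlap. The difference was -0.76 ± 0.27 (limma, adjusted p = 0.048), and the call was lost without any 1 of the vehicle replicates or treated replicates 2 or 3 (-0.64 to -0.89, adjusted p = 0.0519 to 0.248). The call was also lost with probes averaged (-0.46, adjusted p = 0.0878) and with quantile normalization (-0.74, 0.0551). The mean effect of Masp2 was not called without vehicle replicate 2 (-0.24, adjusted p = 0.0549) or in the values as deposited (-0.20, 0.0528). With the replicate numbers as pairs Masp2 was also called at 8, 18 and 24 h and at 1 and 4 days (-0.31 to -0.41, adjusted p = 0.00104 to 0.00828). The other Masp2 probes had mean effects of -0.27 and -0.12, and at 14 days they stood at -0.63 and 0.02.

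C4b, which encodes complement C4, lay at the scanner limit on 15 of 27 vehicle arrays and 4 of 27 treated arrays of the Wy14643 arm, and on all 3 vehicle arrays at 2 and 8 h, where its vehicle level is only a lower bound. At 4 days C4b lay at 14.60, 14.75 and 14.83 in treated and at 15.67, 15.71 and 15.84 in vehicle livers, 1 of them saturated. The groups did not overlap, and the difference was -1.02 ± 0.13 (limma, adjusted p = 1.95e-07). At 14 days it was -0.90 ± 0.13. C4b has a nearly identical copy, C4a, and a probe may take up signal of both, so the share of each in this value is uncertain. At 24 h the call of C4b (-0.53 ± 0.13) ended in the values as deposited (-0.14, adjusted p = 0.435) and when treated replicate 3 was left out (-0.42, 0.0608). For Cfb the treated and vehicle groups were saturated at every time in both arms, which leaves no difference to give.

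**Figure D2:**
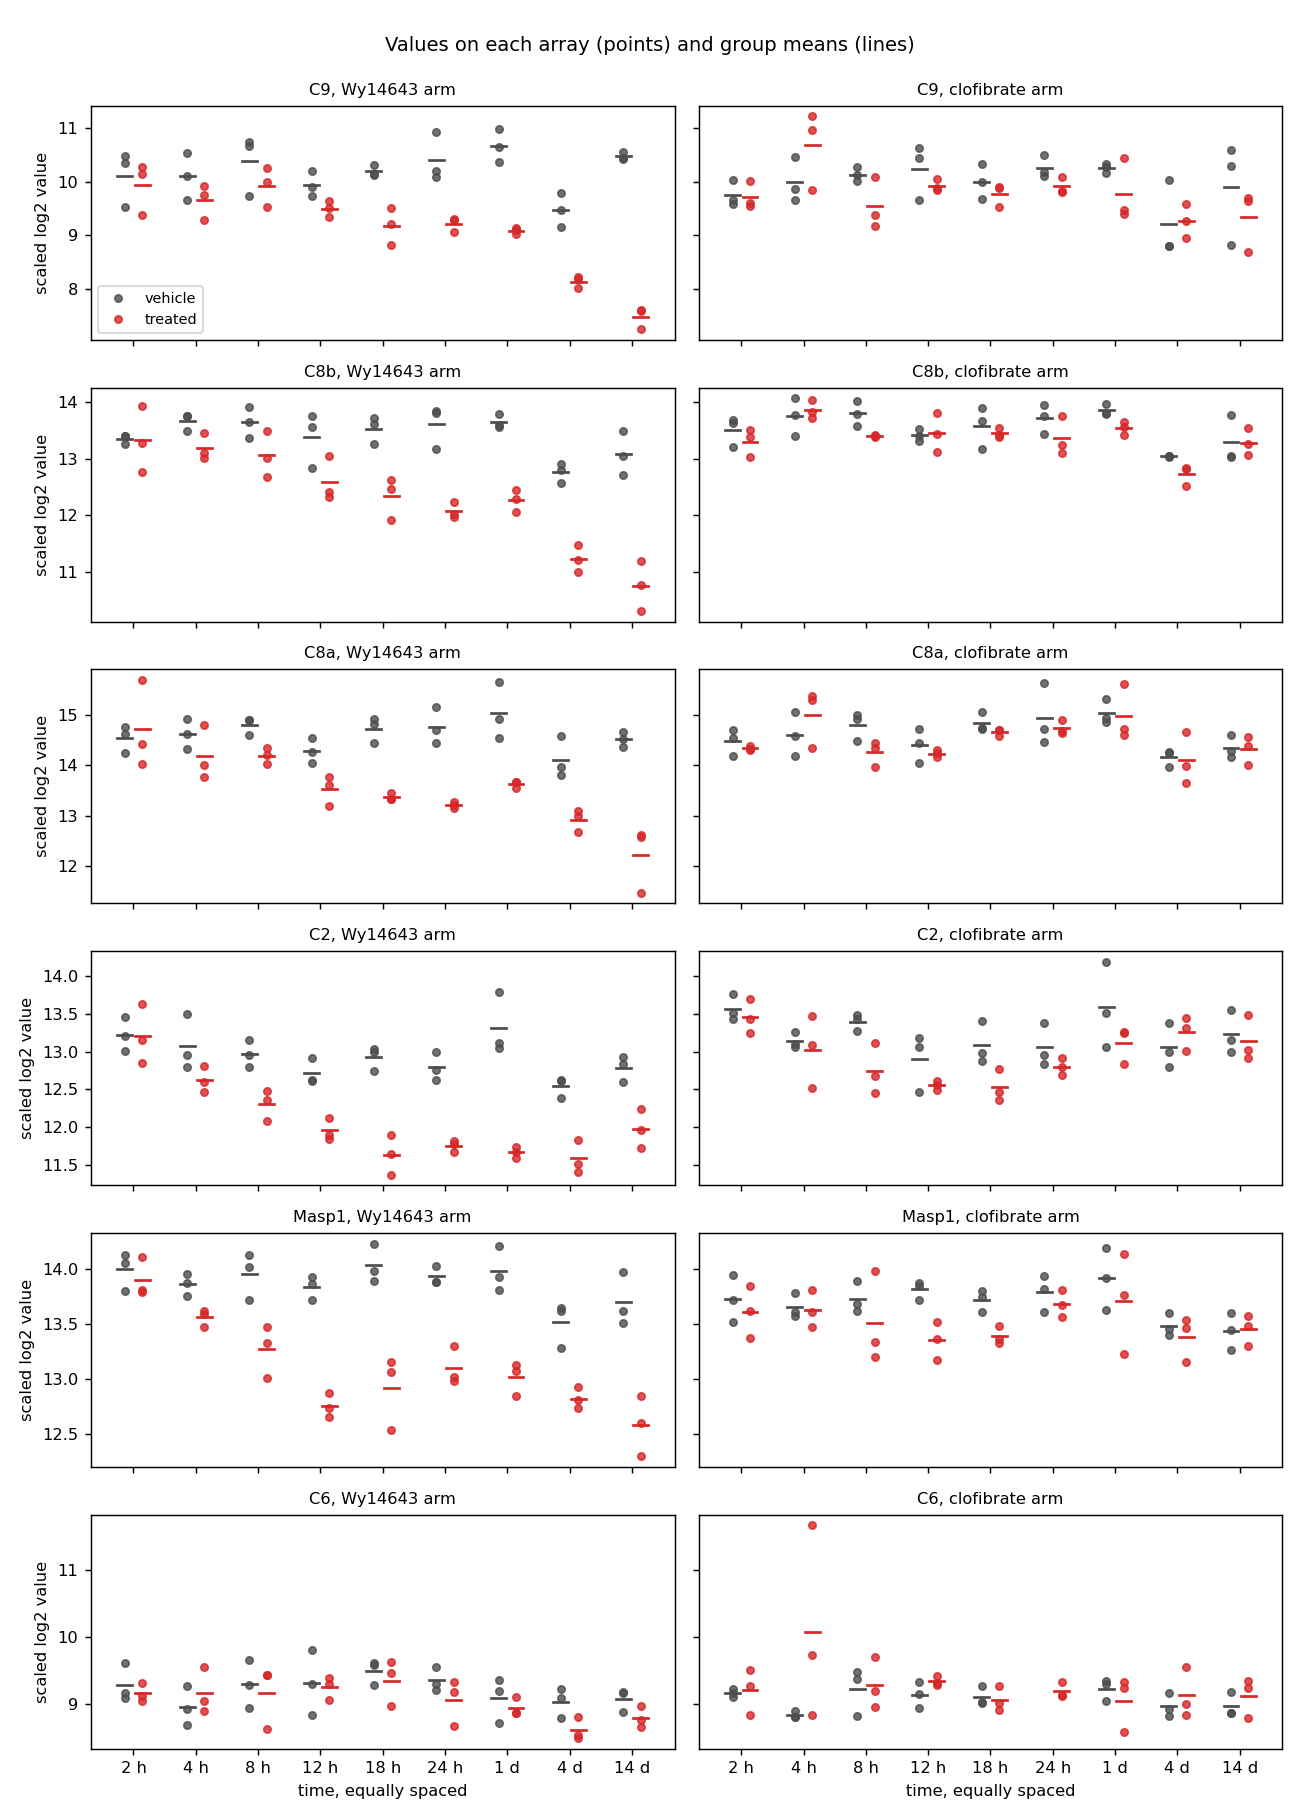
Scaled log2 values (y axis) of 6 members on each array by time (x axis, equally spaced), vehicle in grey and treated in red, with lines at the group means of 3 arrays. C9 at 14 days lies between 7.24 and 7.60 in Wy14643 livers and between 10.43 and 10.56 in their vehicle livers. At that time clofibrate livers overlap theirs only through the vehicle array that is nearly identical to a 4 day array. C6 in the clofibrate arm has no vehicle value at 24 h and 1 high treated value at 4 h.

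Without pairing, the time course of Wy14643 showed no calls before 8 h and most from 18 h. Called members numbered 0 of 9 at 2 h (2.21% of all genes tested were lower there) and 0 of 9 at 4 h (6.33%), with 0 and 3 members at an unadjusted p under 0.05 in limma. They numbered 2 at 8 h (9.18%), 3 at 12 h (10.1%), 7 at 18 h (12.2%), 7 at 24 h (10.5%), 7 at 1 day (15.7%), 7 at 4 days (4.35%) and 8 at 14 days (5.35%). Every call was a lower value, and together 41 of 81 testable pairs of a member and a time were called. C2 (-0.66 ± 0.19) and Masp1 (-0.68 ± 0.15) were the genes called at 8 h, C8b joined at 12 h (-0.80 ± 0.26), and C8a, C9, C8g and C4b joined at 18 h. The 8 h call of C2 was lost without vehicle replicate 1 (-0.56, adjusted p = 0.0648) or treated replicate 2 (-0.55, 0.094) and with the brighter probe (-0.54, 0.0582), and that of Masp1 held without any 1 replicate. The 12 h call of C8b was lost without treated replicates 1 or 2 or vehicle replicates 2 or 3 (-0.61 to -0.71, adjusted p = 0.0767 to 0.167). The 18 h call of C8g was lost without replicate 1 of either group, vehicle replicate 2 or treated replicate 3 (-0.29 to -0.34, adjusted p = 0.0778 to 0.179) and with median scaling (-0.30, 0.0659). Its calls at 1 day (without vehicle replicate 1, -0.32, adjusted p = 0.0908) and 4 days (without vehicle replicate 2, -0.38, 0.1, or treated replicate 3, -0.41, 0.0954) were lost as well. C8a at 4 days lost its call without vehicle replicate 2 (-0.96, adjusted p = 0.0955). With the replicate numbers as pairs, calls began at 4 h. There C2 (-0.46), C4b (-0.38), Masp1 (-0.30) and C8g (-0.29) were called (limma, adjusted p = 0.0226 to 0.0454). As pairs C8a (-0.77, adjusted p = 0.01755) and C8g (-0.27, 0.04735) were also called at 12 h. At 14 days 8 of 9 members had all 3 treated values below all 3 vehicle values, beside 12.7% of all genes tested, and none had them all above.

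**Figure D3:**
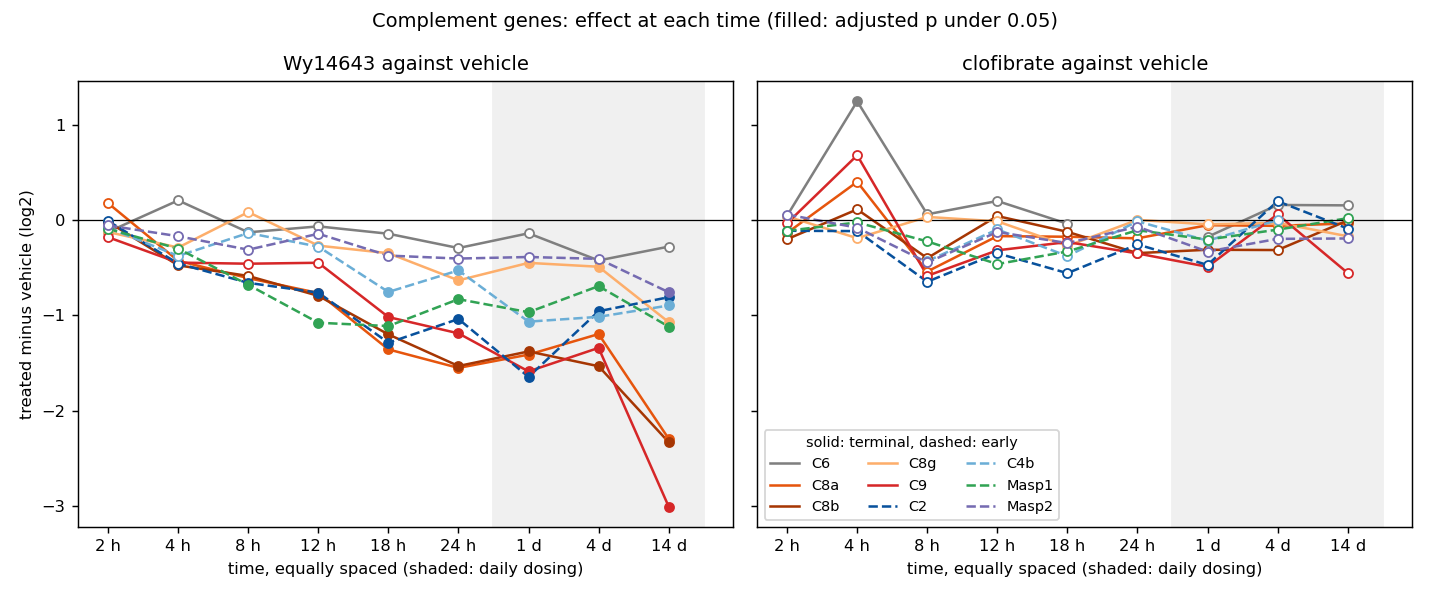
Difference from time-matched vehicle (y axis, log2) at each time (x axis, equally spaced) for the 9 testable members, terminal genes as solid and early genes as dashed lines, filled points where the adjusted p was under 0.05 and shading over the daily dosing course. With Wy14643 the lines fan out downward to -3.01 for C9 at 14 days, and with clofibrate they stay between -0.65 and 1.24.

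The medians of terminal and early genes lay close up to 18 h and further apart later. With Wy14643 the median difference of the 5 terminal genes was -0.45 at 12 h and -1.02 at 18 h, and that of the 4 testable early genes was -0.52 and -0.93. At 24 h the medians were -1.19 and -0.68, at 4 days -1.20 and -0.83, and at 14 days -2.29 and -0.85, a gap of -1.44. For the mean over the 9 times the terminal median was -1.05 and the early median -0.67, a gap of -0.38. Its SD was 0.07 over the 3 treated replicate numbers, each set against the same vehicle means. That SD holds no spread of the vehicle arrays. Without treated replicate 1 the gap was -0.19, a setting in which C4b is not tested. The terminal median stands for an uneven group, since C9, C8a and C8b were far below C8g and C6 at 14 days, and both C8g and C4b were in part limited by saturation. Early genes outside the members varied at 14 days of Wy14643. The classical pathway proteases C1s1 (-1.87 ± 0.19), C1ra (-1.58 ± 0.21) and C1rb (-1.54 ± 0.18) were lower than the early median. C1qa (-0.0025), C1qb (0.04) and C1qc (0.13) were not called. The gap thus holds for these members and depends on which early genes are taken. No test was made of the gap, because the members were chosen with results of these data known.

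**Figure D4:**
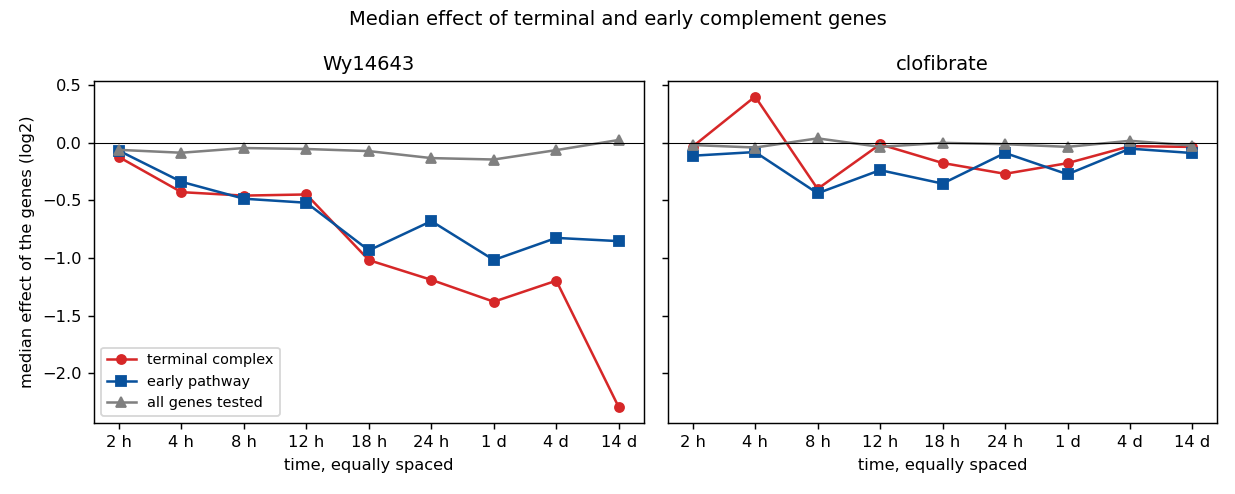
Median difference from vehicle (y axis, log2) of the terminal genes (red), the early genes (blue) and all genes tested (grey) by time (x axis, equally spaced). In the Wy14643 panel the terminal and early medians part at 24 h and stand at -2.29 and -0.85 at 14 days, and in the clofibrate panel they lie between -0.44 and 0.40.

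Few calls were made with clofibrate at the same dose and times. For the mean effect 1 of 7 testable genes was lower, C2 (-0.27 ± 0.08, limma, adjusted p = 0.0291), beside 2.61% of all genes tested. That call was lost without replicate 1 of either group, treated replicate 2 or vehicle replicate 3 (-0.21 to -0.26, adjusted p = 0.0795 to 0.219). With the replicate numbers as pairs 3 genes were called, C2, Masp1 (-0.17, adjusted p = 0.000691) and Masp2 (-0.18, 0.0172). The 7 means all lay below 0, from -0.27 to -0.07, with a median of -0.17 beside -0.02 for all genes. At the late time where C9 differed most with Wy14643, its clofibrate values were 8.69, 9.63 and 9.69 in treated and 8.81, 10.28 and 10.59 in vehicle livers. These groups overlap only through the lowest vehicle value, which is that of the array nearly identical to a 4 day array. Without that array all treated values lie below the remaining vehicle values. With it the difference was -0.56 ± 0.36 and was not called.

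At single times clofibrate had 1 call among 77 testable pairs of a member and a time (5 with the replicate numbers as pairs). It was C6 at 4 h, where 2.67% of all genes tested were called in either direction. At the other times 0 members were called by limma, beside 0.313% of all genes at 2 h, 11.7% at 8 h, 1.36% at 12 h, 0.196% at 18 h, 0.0697% at 24 h, 0.18% at 1 day, 0.316% at 4 days and 0.0388% at 14 days. At an unadjusted p under 0.05 there were 2 members at 8 h, 2 at 18 h, 1 at 12 h, 1 at 1 day and 0 at the rest of these times. C6 lay at 8.84, 9.73 and 11.68 in treated and at 8.81, 8.81 and 8.90 in vehicle livers, so that a single liver, treated replicate 1, was far above the rest. The difference of 1.24 ± 0.33 (limma, adjusted p = 0.03) was 0.45 without that replicate (adjusted p = 0.548), and the call was also lost without vehicle replicates 1, 2 or 3 (1.23 to 1.27, adjusted p = 0.122 to 0.191). C9 stood at 0.68 ± 0.36 at 4 h, with treated values of 9.85, 10.96 and 11.22 and vehicle values of 9.66, 9.87 and 10.47, and was not called. At 8 h, where clofibrate changed the most genes, C2 stood at -0.65 ± 0.23, C9 at -0.59 ± 0.36 and C8a at -0.54 ± 0.27, and none of them was called. With the replicate numbers as pairs the added calls were C2 (adjusted p = 0.00894), C4b (-0.43, 0.0167) and Masp2 (-0.45, 0.0308) at 8 h and Masp1 at 12 h (-0.46, 0.00609). In the values as deposited C2 (-0.85), C4b (-0.64) and C8b (-0.61) were called at 8 h. With scaling on all listed probes 8 members were called lower at 8 h, from -0.44 for C8g to -1.12 for C2. With quantile normalization 7 were called lower there, from -0.65 for Masp1 to -1.30 for C9. The 8 h result thus depends on the scaling. The C6 call at 4 h was lost with both (1.08 and 1.02). At 18 h 5 of 9 members (C2, C4b, C8a, C8g and Masp1) had all 3 clofibrate values below all 3 vehicle values, beside 5.58% of all genes tested. Their differences ran from -0.56 to -0.18, and limma did not call them. C4b was at the scanner limit on all 3 vehicle arrays and 1 treated array there, and C8g on 2 vehicle arrays and 1 treated array. The order of these saturated values depends in part on the scaling. C6 was not listed on the 3 vehicle arrays at 24 h, which leaves no difference there and no mean effect.

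The direct comparison of the compounds, each against its own vehicle at 300 mg/kg, gave a larger fall with Wy14643 for 6 of 7 testable genes, beside 10.9% of all genes tested. The mean differences of the effects were -0.94 ± 0.14 for C8a, -0.92 ± 0.11 for C8b, -0.87 ± 0.15 for C9, -0.59 ± 0.08 for Masp1, -0.58 ± 0.10 for C2 and -0.33 ± 0.06 for C8g. Masp2 differed by -0.15 ± 0.14, with a 95% interval from -0.43 to 0.12, and was not called except with the replicate numbers as pairs (limma, adjusted p = 0.0348). At 14 days 5 of 8 testable genes were called (0.648% of all genes tested were lower), with C9 at -2.45 ± 0.45, C8b at -2.32 ± 0.33 and C8a at -2.26 ± 0.41. Without the doubtful 14 day vehicle array these were -1.91, -2.20 and -2.22, still called. At 18 h 1 of 9 was called (1.22%), at 24 h 2 of 8 (0.836%), at 1 day 2 of 9 (0.392%) and at 4 days 3 of 9 (0.416%), all as a larger fall with Wy14643. Up to 12 h limma called 0 members, beside 0% of all genes at 2 and 4 h, 0.0325% at 8 h and 0.706% at 12 h, with 0, 3, 0 and 2 members at an unadjusted p under 0.05. The arms differ in the arrays and vehicle mice used, which the difference of the effects takes into account only as far as each arm's vehicle does.

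In vehicle livers 0 of 7 testable members were called over 2 to 24 h in either arm (limma F test, 0 at an unadjusted p under 0.05). Of all genes tested 10.6% were called in the clofibrate arm and 26.3% in the Wy14643 arm. Counts over 7 genes are too small to be set apart from these shares. With the replicate numbers as a block C2 was called in the clofibrate arm (adjusted p = 0.0395). The widest spread of vehicle means over these times was 0.66 for C2 in the clofibrate arm (adjusted p = 0.271), and in the Wy14643 arm that of C9 was 0.46 (adjusted p = 0.619) and that of C8b 0.31 (adjusted p = 0.821). The 24 h and 1 day groups, from separate mice with vehicle groups of their own, gave values that can be set side by side. C8b differed by -1.53 and -1.38, C8a by -1.55 and -1.41, C9 by -1.19 and -1.59, Masp1 by -0.83 and -0.97, and C2 by -1.04 and -1.65. In the values as deposited Masp1 stood at -0.35 at 1 day and was not called (adjusted p = 0.0508). Scaling shifts all genes of an array alike, and saturated Cfb stood at -0.39 at 24 h and -0.62 at 1 day. The likeness of the 24 h and 1 day differences is thus shown for scaled values only.

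Other complement genes, listed for comparison with earlier results known, were lower with Wy14643 as well. Of 42 listed genes 32 had values and 22 were testable for the mean effect. Of these 18 were lower and none higher, beside 35.6% of all genes tested that were lower, and their median was -0.26. Hc, Mbl2, C4bp, Cfi, Vtn and Clu were not testable because they were saturated on 101 to 108 arrays. Whether these bright genes fell thus cannot be seen. C4a, C3ar1, Cr2 and Itgam lacked values on some arrays. The proteases of the classical pathway led: C1s1 (-0.87 ± 0.06), C1rb (-0.77 ± 0.06) and C1ra (-0.67 ± 0.07), next to Cpn2 (-0.72 ± 0.06), a subunit of the carboxypeptidase N that inactivates complement fragments, and the C1 inhibitor Serping1 (-0.52 ± 0.08). Cfhr2 (-0.43 ± 0.06), a factor H related gene, and the regulator Cd59a (-0.39 ± 0.05), which blocks the membrane pore, were also lower. The properdin gene Cfp (-0.34 ± 0.08), C1qa (-0.25 ± 0.07), C1qb (-0.33 ± 0.07) and C1qc (-0.25 ± 0.05) fell less. So did the lectins Fcna (-0.22 ± 0.07), Colec10 (-0.20 ± 0.08) and Colec11 (-0.19 ± 0.06) and the receptors Itgb2 (-0.29 ± 0.09), C5ar2 (-0.27 ± 0.07), Vsig4 (-0.25 ± 0.08) and Itgax (-0.20 ± 0.06). In the values as deposited 9 of these 18 lost their call (C1qa, C1qc, C5ar2, Colec10, Colec11, Fcna, Itgax, Itgb2 and Vsig4), and Cpn1 (0.23, adjusted p = 0.000471) and Cr1l (0.20, adjusted p = 0.000684) were called higher. Colec10 lost its call without replicate 1 of either group, treated replicate 2 or vehicle replicate 3 (-0.16 to -0.19, adjusted p = 0.0942 to 0.105), Fcna without treated replicate 1 (-0.17, 0.0771) and Itgb2 without treated replicate 3 (-0.25, 0.0518). With the replicate numbers as pairs Cpn1 was called higher (0.09, adjusted p = 0.0159). With clofibrate 1 of 19 was lower, C1s1 (-0.31 ± 0.09, adjusted p = 0.0321), beside 2.61% of all genes tested. Its call was lost without treated replicates 2 or 3 or vehicle replicate 3 (-0.22 to -0.31, adjusted p = 0.0519 to 0.282). As pairs C1rb was called too (-0.21, adjusted p = 0.0233).

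C1qa, C1qb, C1qc, Vsig4, Itgax and Itgb2 are made by macrophages rather than hepatocytes. At 14 days of Wy14643 none of these was called, with differences from -0.0025 (C1qa) to 0.28 (Itgb2). Of the 7 Kupffer cell markers measured, 6 were lower in the mean effect of Wy14643, and their summed level was 15.12 to 16.32 (median 15.73) in treated and 15.14 to 17.70 (median 16.02) in vehicle livers. At 14 days it was 15.39 to 15.97 in treated and 15.14 to 16.05 in vehicle livers, so the groups overlapped where C9, C8a and C8b differed most. The summed level of hepatocyte markers, most of them saturated, was 17.69 to 18.22 in treated and 17.79 to 18.59 in vehicle livers of the Wy14643 arm. Its one unsaturated gene, Ttr, was lower (-0.70 ± 0.11). Of other markers 2 of 6 endothelial, 4 of 6 stellate and 2 of 3 cholangiocyte genes were lower in the mean effect and none higher, beside 35.6% of all genes lower, and Cd3e, the lymphocyte marker tested, was not called (-0.19 ± 0.14). Neutrophil S100a9 did not pass the test (-0.15 ± 0.21), and Ly6g had no value on any array. At 14 days no marker was lower, and endothelial Lyve1 (1.22 ± 0.26, adjusted p = 0.000662) and cholangiocyte Sox9 (1.26 ± 0.42, adjusted p = 0.0337) were higher. The part of cell composition in the fall of the complement genes was not tested.

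The genes most like C8b over the 18 effects, other than members, were the sialic acid hydroxylase Cmah (r = 0.95), C1rb (0.93), C1s1 (0.92), C1ra (0.92) and Serpina11 (0.92). C9 ranked 12th (0.91), C8g 35th (0.85), Masp1 52nd (0.83), Masp2 74th (0.81) and C2 154th (0.74) of 8068 genes. Of 10 measured liver transcription factors 5 were lower and 2 higher in the mean effect of Wy14643, near the shares of all genes (35.6% lower and 56.6% called in either direction). Stat3, which carries interleukin-6 signals to acute phase genes, stood at -0.83 ± 0.13, and Cebpa, a hepatocyte factor, at -0.66 ± 0.08. Nr5a2 (-0.38 ± 0.08), Foxa2 (-0.29 ± 0.13) and the bile acid receptor Nr1h4 (-0.24 ± 0.06) were also lower, while Ppara (0.39 ± 0.13) and Cebpb (0.28 ± 0.10) were higher. Foxa1 (-0.09 ± 0.07), Hnf4a (-0.08 ± 0.05) and Nr1h3 (-0.10 ± 0.06) were not called for the mean. At 14 days, where C9, C8a and C8b were lowest, Cebpa (-0.996 ± 0.245), Nr1h4 (-0.67 ± 0.19), Foxa1 (-0.63 ± 0.20) and Hnf4a (-0.59 ± 0.14) were lower. Of all genes tested 5.35% were lower at that time. The other factors were not called there, among them Stat3 (-0.54 ± 0.39), Cebpb (-0.40 ± 0.29) and Ppara (-0.32 ± 0.39). The part of these factors in the fall of the complement genes was not tested. For the mean effect of clofibrate limma called 0 of the 10, with 1 at an unadjusted p under 0.05, while at 8 h Cebpb was lower (-1.32 ± 0.42, adjusted p = 0.0332) and Foxa1 higher (0.80 ± 0.22, adjusted p = 0.0132). For the mean effect the compounds differed for Cebpa alone of the 10 (-0.60 ± 0.12, adjusted p = 0.000167).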

How the data were processed

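The authors deposited log2 fluorescence of single-colour Cy3 arrays. Their image reading, background handling and normalization are not stated (not given in the sources used here), so their centring is unknown. Of 41096 probes that are not controls, 51.5% of values were empty. Scaling aligned the arrays' 75th percentiles over 12210 common probes. A probe within 0.05 of an array's highest tied value was taken as saturated, and genes saturated on every array of both groups were left untested. Probes were named by the platform annotation. Each arm was fitted in limma (1 mean per group, variance trend), with Benjamini-Hochberg adjustment over all genes at 0.05. The compounds were compared on both arms together.

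Most alternatives changed scaling, probe choice or replicates. The members, lists and alternatives were chosen with earlier results of these data known. Named genes are all members, other complement genes called for a mean effect, the 5 genes most like C8b, and 10 transcription factors. Residuals of equal replicate numbers correlated above 0.1 in 16 of 18 comparisons (not clofibrate at 8 h and 1 day), so paired values are printed where they change a call. The precision rests on 3 arrays per group. Fits were tested on simulated data. The sequences are RefSeq's (GRCm38.p6). Tools were R 4.3.3, limma 3.58.1, Python 3.11.15 and matplotlib 3.10.9.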

Additional observations from a re-analysis of the deposited data

Results flagged for a closer look

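The results below were marked because 2 effects differed by a test of the difference itself (limma, Benjamini-Hochberg over all genes). Between the compounds, as Wy14643 minus clofibrate, the mean effects differed by -0.94 for C8a, -0.92 for C8b, -0.87 for C9, -0.59 for Masp1, -0.58 for C2 and -0.33 for C8g. At 14 days the effects differed by -2.45 for C9, -2.32 for C8b, -2.26 for C8a, -1.14 for Masp1 and -0.90 for C8g. Leaving out treated replicate 1 ended the 14 day call of Masp1 (-0.93, adjusted p = 0.0553). The other 4 held without any 1 replicate number, and all 5 held without the doubtful 14 day vehicle array (-1.91 for C9, -2.20 for C8b, -2.22 for C8a, -1.22 for Masp1 and -0.94 for C8g).

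Most differences at earlier times lost their calls under several settings. At 18 h Masp1 differed by -0.78 (1.22% of all genes tested were lower), and the call was lost without any 1 replicate number of a group except treated replicate 2 (-0.61 to -0.87, adjusted p = 0.0958 to 0.346), with median scaling (-0.73, 0.0731) and with probes averaged (-0.50, 0.0825). At 24 h C8b differed by -1.18 and C8g by -0.63 (0.836%). C8b lost its call without any except treated replicate 2 (-0.94 to -1.26, adjusted p = 0.0571 to 0.187), and C8g without replicate 1 of either group or treated replicate 3 (-0.58 to -0.68, adjusted p = 0.0597 to 0.181). In the values as deposited C8b stood at -0.85 (adjusted p = 0.125) and C8g at -0.30 (0.36), and with quantile normalization C8g stood at -0.43 (0.0557). At 1 day C2 differed by -1.17 and C4b by -0.85 (0.392%). C2 lost its call without vehicle replicates 1 or 2 or treated replicates 2 or 3 (-1.05 to -1.24, adjusted p = 0.0885 to 0.258), and C4b without vehicle replicate 1 or treated replicates 2 or 3 (-0.69 to -0.81, adjusted p = 0.201 to 0.414). With the brightest probe C2 stood at -0.70 (adjusted p = 0.368). C2 also lost its call as deposited, with all listed probes and with quantile normalization (-0.88 to -0.93, adjusted p = 0.094 to 0.114). C4b lost its call as deposited (-0.55, 0.213), with all listed probes (-0.60, 0.201) and with median scaling (-0.79, 0.08). At 4 days C2 differed by -1.15, C4b by -1.01 and C8b by -1.22 (0.416%). C2 lost its call without replicate 1 of either group, vehicle replicate 2 or treated replicate 3 (-1.03 to -1.10, adjusted p = 0.14 to 0.258), C4b without vehicle replicate 1 (-0.88, 0.144) and C8b without any 1 of the 6 (-1.15 to -1.30, adjusted p = 0.0683 to 0.193). With the brightest probe C2 stood at -0.69 (adjusted p = 0.339). As deposited, with all listed probes and with quantile normalization neither C2 (-1.06 to -1.07, adjusted p = 0.0506 to 0.058) nor C8b (-1.11 to -1.13, 0.0598 to 0.0671) was called.

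Within the Wy14643 arm the C9 effect at 14 days differed from that at 24 h by -1.82. In the other alternatives this difference ran from -1.62 to -2.20 and was called in each.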

How the results depend on the processing

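Wy14643 called 8 of 9 members for the mean effect, and 7 to 9 under the other settings. Its 41 calls at single times were 36 to 53, and the 6 differences between the compounds 5 to 7. The number of clofibrate mean calls, 1, was 0 in the values as deposited and with the brightest probe whether saturated or not, 4 with scaling on all listed probes, 3 with quantile normalization and 3 with the replicate block, and 0 to 1 with 1 replicate left out. Clofibrate calls at single times, 1, were 4 as deposited, 8 with all listed probes, 7 with quantile normalization, 0 with probes averaged, 0 for genes on all 108 arrays, 5 with the replicate block and 0 to 1 with a replicate left out. The 14 day minus 24 h calls of Wy14643, 1, were 5 as deposited and 3 with quantile normalization. Members called over time in vehicle livers, 0, were 4 with all listed probes, 1 with quantile normalization and 1 with the replicate block in the clofibrate arm, and 2 as deposited in the Wy14643 arm. Other complement genes called with Wy14643, 18, were 11 as deposited. Those with clofibrate, 1, were 0 as deposited, 0 with probes averaged, 2 with the replicate block and 0 to 2 with a replicate left out. The gap between terminal and early medians with Wy14643, -0.38, was -0.51 with probes averaged and -0.41 to -0.19 with a replicate left out. One result turned direction: C8g at 1 day of Wy14643 was 0.17 as deposited. For the mean effects of single genes and the single-time results called in the reported fit, 116 pairs of a result and a setting lost a call, 11 gained one and 1261 kept their side. The replicate block changed no estimate and ended no call. It added 12 single-time calls with Wy14643: 5 of Masp2, C8g at 4 and 12 h, C2, C4b and Masp1 at 4 h, C8a at 12 h and C6 at 4 days. The cause of these changes was not tested. Saturation limits Cfb, C4b and C8g, and 3 arrays per group limit the rest.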

Other observations

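Masp2 values varied with the replicate number more than with treatment at early times. At 2 h of the Wy14643 arm Masp2 lay at 13.76, 14.71 and 14.56 in vehicle replicates 1, 2 and 3 and at 13.63, 14.74 and 14.48 in the treated replicates of the same numbers. At 4 h it lay at 13.84, 14.63 and 14.70 in vehicle and at 13.57, 14.56 and 14.53 in treated livers. Replicate 1 was thus the low one in all 4 of these groups. At 2 h C8a was high in 1 liver, treated replicate 1 of the Wy14643 arm (15.69, beside 14.03 and 14.42 in its group).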
